A study of Brassica napus with 48 samples.

Results

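MT1C is a gene of the metallothionein family, and it was followed here through flower buds of oilseed rape (Brassica napus) with and without dominant genic male sterility. It was measured by 1 probe set, the only one that the array's annotation assigned to MT1C alone, of 13513 probe sets assigned to 1 gene. The gene was picked because its signal in sterile large buds of line J03 had been higher than in fertile ones in an earlier look at these arrays. MT1C values that involve large J03 buds are therefore given as a description with no test. In the other comparisons the means rest on other arrays, while the errors come from 1 fit of all 12 groups, large J03 buds included. These comparisons were tested, but with results of these data already known. Whether any of them had also named MT1C earlier is not known.

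Line J10 is homozygous at the sterility locus: its sterile plants were MsMsrfrf and its fertile plants MsMsRfrf, so all J10 plants carried 2 Ms alleles and sterile and fertile plants differed at Rf. In line J03, sterile plants were Msmsrfrf and fertile plants msmsrfrf, so all J03 plants were rfrf and differed at Ms. Untreated field-grown plants were sampled at 3 bud sizes: small (under 1 mm, tetrad stage), middle (1 to 3 mm, uninucleate pollen) and large (over 3 mm, trinucleate pollen). Each of the 12 groups had 4 arrays, read here as 2 biological replicates hybridised 2 times each. Buds of a line came from 2 to 4 plants, and no label says which plants made up a replicate. The spread behind each p-value is therefore that of these RNA samples, and may be partly technical. RNA came from buds with stamens and pistils, so a change in the share of a cell type and a change of RNA per cell cannot be told apart.

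Metallothioneins are small proteins rich in cysteine, whose thiol groups bind copper, zinc and other metal ions. In Arabidopsis, type 1 metallothioneins help to hold copper, are found in vascular tissue among other places, and are known to be abundant in senescing leaves. MT1C has a close relative in the same genome, MT1A, and a probe designed for one may bind RNA of the other. Rapeseed holds several copies of many Arabidopsis genes, so the signal may sum over copies. Where the lines differ in these sequences, a signal can differ between J10 and J03 without a change in expression, and this was not tested.

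The arrays (Affymetrix ATH1, designed for Arabidopsis thaliana) had been scaled before deposit, with 2% trimmed means of 500.01 to 500.03 and median signals of 339.05 to 410.1. Levels below are signals on that linear scale, as mean ± SD over 2 replicates (n = 2 in every group). Differences are on the log2(signal + 112) scale. Their standard errors (SE) and adjusted p-values come from limma fitted to 14021 probe sets, and a difference was called at an adjusted p under 0.05. The tapetum, the cell layer that feeds pollen, was present by its marker SHT, which rose from small to middle fertile buds by 5.11 in J03 and by 4.26 in J10, each with an SE of 0.36 (adjusted p = 1.6e-09 for J03, 4.6e-08 for J10).

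MT1C signal ran from 31.6 to 10472 over the 48 arrays, and it was higher in J03 than in J10 at every size. The 24 arrays of J10 had a lowest signal of 31.6, a median of 314.1 and a highest of 668.3. The 24 arrays of J03 ran from 299.4 through a median of 1104 to 10472. At each of the 6 matched pairs of fertility class and bud size, all 4 J10 arrays lay below all 4 J03 arrays. The 4 arrays of a group are only 2 replicates, and the pairs of large buds include the J03 arrays that chose the gene. The share of all probe sets that separate in this way was not computed, either for these pairs or for the other groups compared below.

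**Figure D1:**
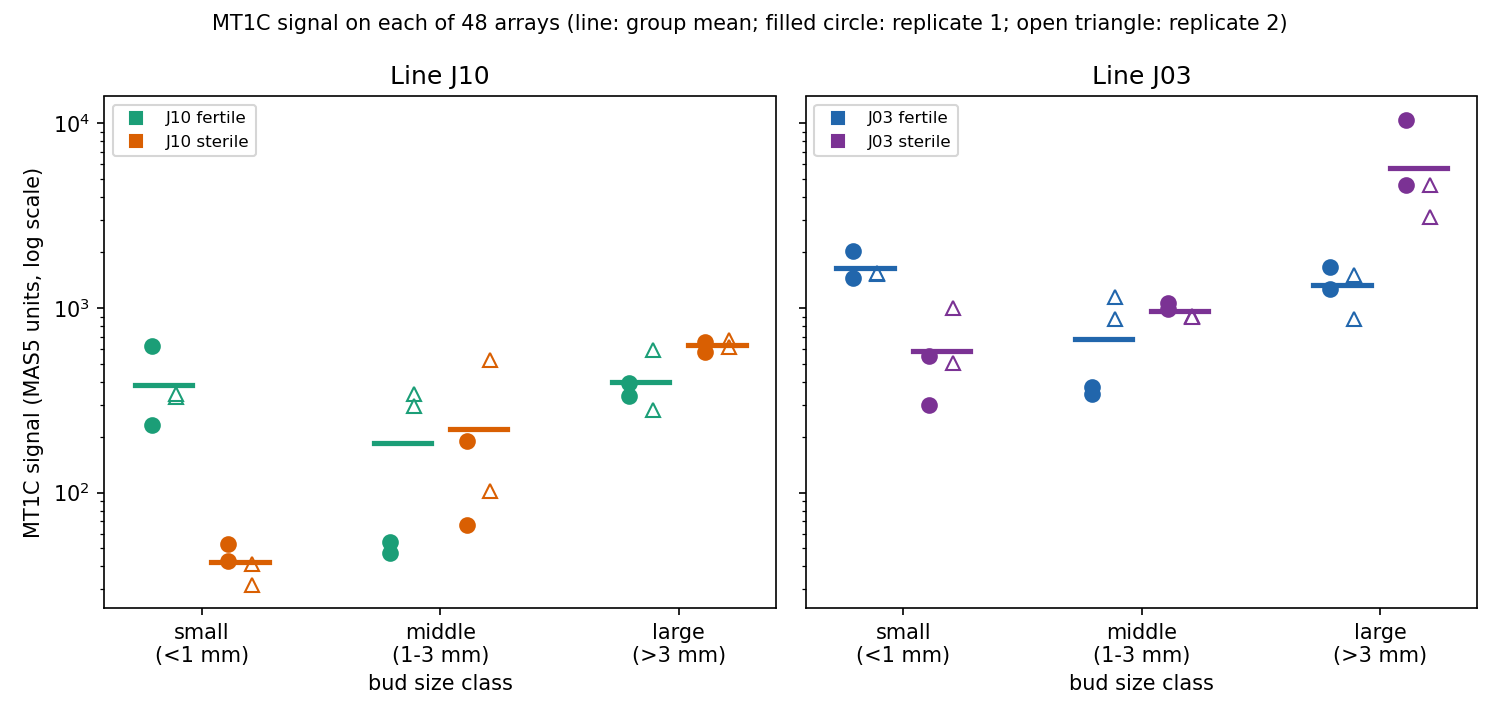
MT1C signal (log axis, array units after scaling) on each of the 48 arrays by bud size, for J10 at left and J03 at right; circles and triangles are the arrays of replicates 1 and 2, and bars are group means. Fertile means of both lines are lowest at the middle size, sterile means are higher at each larger size, and sterile large J03 buds reach 3125 to 10472.

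By group mean, sterile large J03 buds were highest (5729 ± 2595), followed by fertile small J03 (1647 ± 151), fertile large J03 (1334 ± 194), sterile middle J03 (964 ± 85.4) and fertile middle J03 buds (684 ± 460). Sterile large J10 (629 ± 18.0) and sterile small J03 buds (587 ± 229) came next. The lowest 5 groups were all J10: fertile large (399 ± 51.5), fertile small (383 ± 64.3), sterile middle (221 ± 131), fertile middle (185 ± 190) and sterile small (42.2 ± 8.06). Of the 11 neighbouring pairs in this order, 4 were farther apart than the larger SD of the pair. These were the 3 steps from the highest group down to sterile middle J03 buds and the step from fertile small to sterile middle J10 buds. The other 7 did not differ beyond their spread.

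Agreement between the 2 hybridisations of a replicate varied. The higher was a median of 1.31 times the lower, and in 5 of 24 replicates more than 2 times. The widest gap was in sterile middle J10 buds, where the hybridisations of replicate 2 gave 525.3 and 102. Middle fertile buds split by replicate instead. In J10 replicate 1 gave 47 and 54.1 and replicate 2 gave 341.3 and 296.4. In J03 replicate 1 gave 372.5 and 344.4 and replicate 2 gave 1148 and 870.6. Relative to the mean, these 3 groups had the largest SDs of the 12, while in signal units the largest was that of sterile large J03 buds.

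The pattern for which the gene was picked was as follows. Sterile large J03 buds gave 10472 and 4655 in replicate 1 and 4663 and 3125 in replicate 2. Fertile large J03 buds gave 1677 and 1265 in replicate 1 and 1516 and 877.1 in replicate 2. All 4 sterile arrays lay above all 4 fertile ones, and the mean signal was 4.30 times as high (difference 1.90, SE 0.40), a value that chose the gene and has no test. Of the 14021 probe sets, 0.963% were called in this comparison in either direction and 0.207% above 0. From middle to large buds the difference was 2.30 (SE 0.40) in sterile J03 and 0.96 (SE 0.40) in fertile J03 plants. These comparisons called 0.471% and 0.813% of all probe sets and share the large J03 arrays.

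Markers of other tissues had the following values in the same arrays. Of 6 markers of maturing pollen, 3 had a probe set of their own (ACT11, ACT12 and TET11), and their summed signal was 917 to 1161 in sterile and 2813 to 3005 in fertile large J03 buds. ACT12 and TET11 fell (differences -2.33 and -1.69, SE 0.47 and 0.29, adjusted p = 0.0094 and 0.0021), and ACT11 had 0.08 (SE 0.37). Of 8 tapetum markers 3 were named (A9, AMS and SHT), with sums of 4800 to 9199 in sterile and 12031 to 15663 in fertile buds, most of it SHT. A9 went the other way (1607 ± 567 in sterile and 1045 ± 404 in fertile buds), and none of the 3 was called. Of 6 pistil and ovule markers INO and SPT were named. INO had 276.75 and 383.25 in the sterile and 161.1 and 105.65 in the fertile replicates (difference 0.80, SE 0.35, adjusted p = 0.480), and SPT had -0.06 (SE 0.22). The green tissue markers RCA and PRK, 2 of 6 in that list, summed to 10008 to 10641 in sterile and 7629 to 7903 in fertile buds. Detection calls were not used, so whether low marker signals such as 105.65 for INO exceed background is not known. None of the 4 phloem markers was named. The part of these tissues in the MT1C difference was not tested.

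The next question was whether sterile and fertile buds differed in MT1C outside large J03 buds. In small buds of both lines the sterile plants had less signal. Sterile small J10 buds gave 42.7, 53, 41.3 and 31.6, and fertile ones 232.7, 624.3, 331.8 and 343.3. All 4 sterile arrays lay under the offset of 112 and below every fertile array. The sterile arrays were brighter at MT1C than only 3.11% to 12.4% of probe sets. Detection calls were not used here, so whether a signal of 31.6 to 53 exceeds background is not known, and no fold over this group is given. The log2 difference was -1.63 (SE 0.40, 95% interval -2.45 to -0.81), with an adjusted p of 0.145 where 0.107% of probe sets were called. Its size depends on the offset, at -2.70 with an offset of 16 and -0.86 with one at the 50th percentile.

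Small J03 buds had the same order at a higher level. Sterile buds gave 299.4, 550.7, 501.6 and 997.2, and fertile buds 2049, 1459, 1525 and 1557. Again no sterile array reached a fertile one, but how many probe sets separate like this in small buds was not computed. The fertile mean was 2.81 times the sterile mean (difference -1.41, SE 0.40, 95% interval -2.23 to -0.59). The adjusted p was 0.328, in a comparison that called 0.00713% of probe sets, so neither small-bud difference passed the threshold. By size of difference alone, without regard to error, MT1C ranked 9 of 14021 in small J10 and 23 in small J03 buds. The J10 rank involves signals under the offset and may change with it. Both differences were called when the hybridisations were joined across replicate numbers (adjusted p = 0.0023 and 0.016). The J10 difference was also called with all 48 arrays (adjusted p = 0.018), and the J03 difference with the compared groups only (adjusted p = 0.042). Joining mixes both replicates in each value, and the fit of all 48 arrays treats hybridisations as nearly independent (correlation 0.043). If the hybridisations pair as read here, both settings give little weight to the spread between replicates. Calls gained under them are therefore not counted as support.

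In small J10 buds other measures also took different values in the 2 classes. The summed signal of RCA and PRK was 2876 to 2956 in sterile and 4249 to 6302 in fertile buds. The log2 ratio of 3' to 5' control signal, taken here as a stand-in for RNA integrity, was 1.67 ± 0.069 in sterile and 1.24 ± 0.35 in fertile buds. With that ratio as a covariate the MT1C difference was -1.83 (adjusted p = 0.279). In small J03 buds the marker sums were 6348 to 6476 in sterile and 6228 to 7418 in fertile buds, and the ratios were 1.07 ± 0.23 and 0.98 ± 0.36. The part of the marker tissue was not tested. A log2 ratio from the array's other control probe sets for the same transcripts ran from -1.88 to 0.27 over the 48 arrays. The ratio used above ran from 0.70 to 2.03. These probe sets therefore gave different levels, and whether either ratio follows RNA integrity in rapeseed was not tested.

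At the middle size the sterile-fertile difference was not called in either line. It was 0.15 in J10 (SE 0.40, adjusted p = 0.954, 95% interval -0.67 to 0.97) and 0.57 in J03 (SE 0.40, adjusted p = 0.966, 95% interval -0.25 to 1.39), with arrays of both classes overlapping. These comparisons called 0.571% and 0.0285% of probe sets. The J10 value was -0.55 without fertile replicate 1, 0.85 without fertile replicate 2, -0.18 without sterile replicate 2 and 0.48 without sterile replicate 1. The J03 value was -0.050 without fertile replicate 1 and 1.19 without fertile replicate 2.

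In large J10 buds sterile plants gave 657.1, 576.2, 668.3 and 615.9, and fertile plants 333.4, 392.5, 589.6 and 282.1. The replicate means did not overlap, but the highest fertile array exceeded the lowest sterile one. The mean was 1.58 times as high in sterile buds (difference 0.57, SE 0.40, 95% interval -0.25 to 1.39, adjusted p = 0.579), where 2.43% of probe sets were called. The effect in J10 minus that in J03 was -1.34 (SE 0.56) in large buds, which uses the arrays that chose the gene and has no test.

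**Figure D2:**
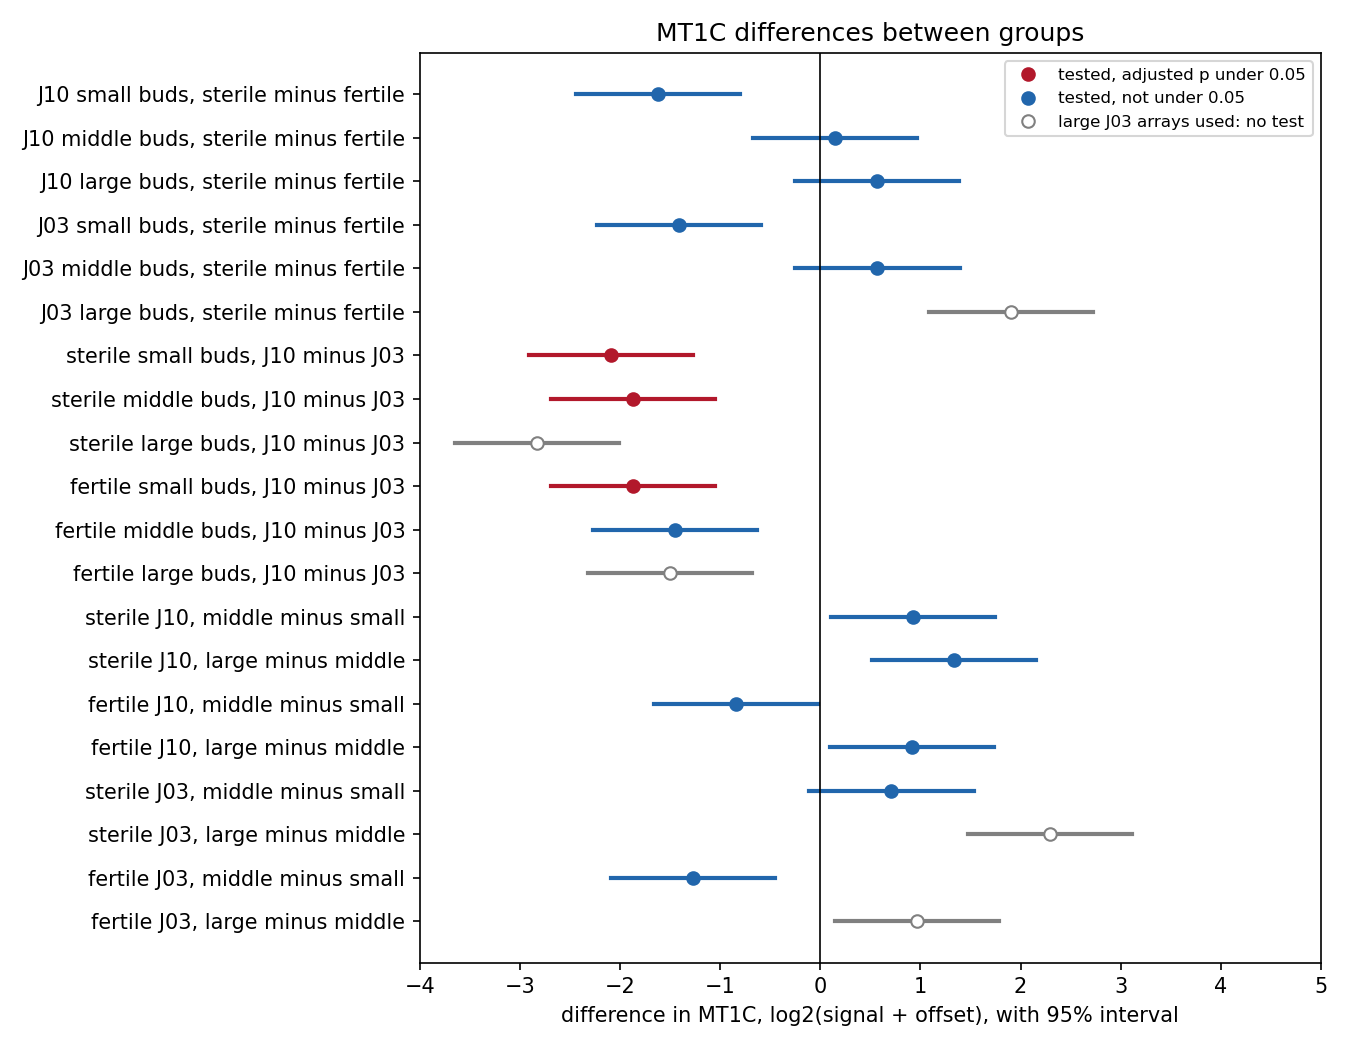
Differences in MT1C on the log2(signal + offset) scale (points) with 95% intervals (bars) for 20 comparisons between 2 groups; red points were called, blue points were tested and not called, and open grey points involve large J03 buds and have no test. All 6 J10 minus J03 differences lie below 0, from -2.83 to -1.45, and 3 of the 4 tested ones were called.

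The comparison of lines asked whether J10 and J03 buds of the same size and fertility class differed. MT1C was lower in J10 in all 4 tested pairs, and 3 were called. In sterile small buds the mean was 42.2 ± 8.06 in J10 and 587 ± 229 in J03 (difference -2.09, SE 0.40, adjusted p = 0.0069). This difference was -3.26 with an offset of 16 and -1.19 with one at the 50th percentile, called in both. This comparison called 0.92% of probe sets below 0 and 1.25% in all. In sterile middle buds the J03 mean was 4.36 times the J10 mean (difference -1.87, SE 0.40, adjusted p = 0.011), with 1.7% called below 0 and 2.39% in all. In fertile small buds it was 4.30 times as high (difference -1.87, SE 0.40, adjusted p = 0.030), with 0.185% called below 0 and 0.392% in all.

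Fertile middle buds had a J03 mean 3.70 times that of J10 (difference -1.45, SE 0.40, adjusted p = 0.103, with 0.571% of probe sets called), which did not pass. It was -0.91 with the offset at the 50th percentile. The highest J10 array there was 341.3 and the lowest J03 array 344.4. The differences that involve large J03 buds were -2.83 in sterile and -1.50 in fertile buds (SE 0.40 for both). Among all tested probe sets they were called in 2.65% and 0.563%. By size of difference alone, without regard to error, MT1C ranked 18 of 14021 in sterile small buds, 47 in sterile middle buds and 18 in fertile small buds.

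The line calls rest on few replicates. The call in fertile small buds was lost without any 1 of its 4 replicates (differences -1.96 to -1.79, adjusted p = 0.124 to 0.245). In sterile small buds it was lost without either J10 replicate or J03 replicate 2 (-2.14, -2.04 and -1.76, adjusted p = 0.056, 0.069 and 0.161), and in sterile middle buds without J10 replicate 1 or either J03 replicate (-1.54, -1.79 and -1.95, adjusted p = 0.129, 0.088 and 0.083). The fertile middle difference was -0.75 without J10 replicate 1 and -0.83 without J03 replicate 2, and it was called without J10 replicate 2 or J03 replicate 1 (-2.15 and -2.07, adjusted p = 0.025 and 0.047).

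The lines also differed in other measures. The 3' to 5' ratio was 1.48 ± 0.37 over the 12 J10 replicates and 0.998 ± 0.185 over the 12 J03 replicates. Among sterile replicates it was 1.50 to 1.95 in J10 and 0.894 to 1.33 in J03, with no overlap. In the sterile comparisons a covariate for this ratio therefore extrapolates, and ratio and line cannot be told apart. With this ratio as a covariate the 3 line calls remained (-2.37, -2.21 and -1.995 in sterile small, sterile middle and fertile small buds, adjusted p = 0.025, 0.047 and 0.023). With the ratio from the array's other control probe sets for the same transcripts they were lost at differences of -2.29, -2.16 and -1.81 (SE 0.64, 0.82 and 0.44, adjusted p = 0.254, 0.594 and 0.086). With that setting no probe set was called in either sterile comparison. RCA and PRK, enzymes of photosynthetic carbon fixation, were both lower in sterile J10 than in sterile J03 buds at the small and the middle size (4 of 4 tests, adjusted p = 0.0052 to 0.026). Of all probe sets, 0.92% and 1.7% were called below 0 in these comparisons. The marker lists were chosen with earlier results of these data known, so this count is a description. The sums of RCA and PRK were 2876 to 2956 in J10 and 6348 to 6476 in J03 at the small size, and 3771 to 4061 and 8468 to 9144 at the middle size. Of the tapetum markers, SHT was lower in sterile middle J10 buds (-3.14, SE 0.36, adjusted p = 1.1e-05), where the 3 summed to 6574 to 7736 in J10 and 15073 to 17926 in J03. In fertile small buds neither RCA nor PRK was called and the sums overlapped, at 4249 to 6302 and 6228 to 7418. The part of these tissues in the line differences was not tested.

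**Figure D3:**
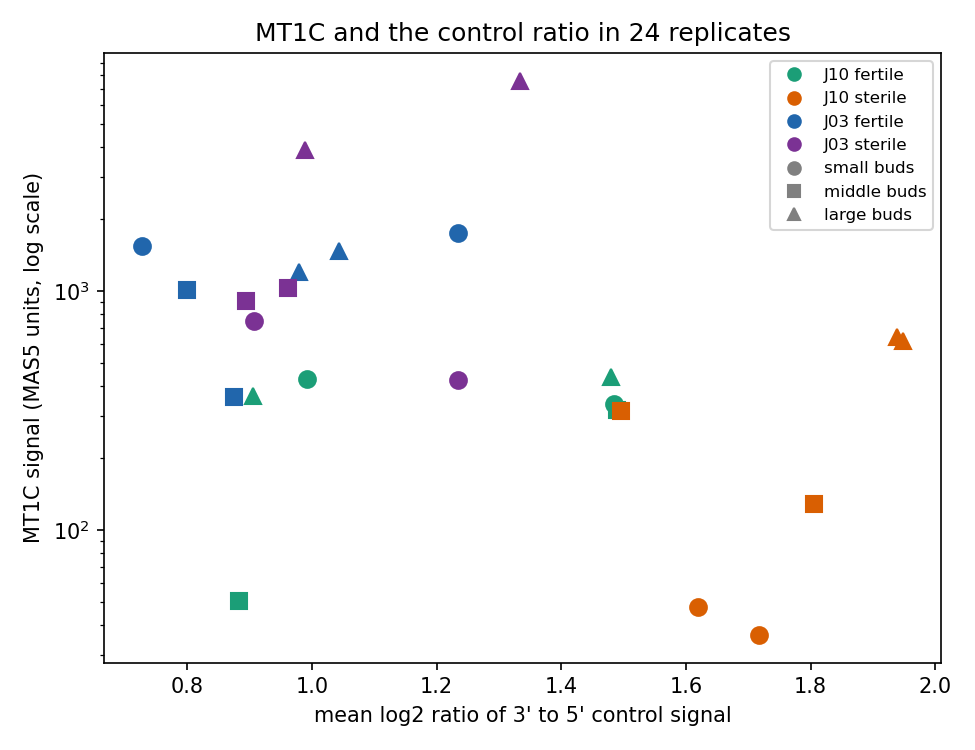
MT1C signal (log axis) against the mean log2 ratio of 3' to 5' control signal for the 24 replicates, with colours for line and fertility and symbols for bud size. Sterile J10 replicates have ratios of 1.50 to 1.95 and MT1C signals from 36.5 to 642, so both the dimmest and the brightest J10 replicates lie at high ratios.

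Across bud sizes, fertile means were lowest at the middle size and sterile means were higher at each larger size in both lines, but no tested step, and no test of the difference between the courses, passed the threshold. In fertile J10 buds the mean went from 383 in small through 185 in middle to 399 in large buds. The steps were -0.85 and 0.92 (SE 0.40 and adjusted p = 0.447 for each), in comparisons that called 1.55% and 1.13% of probe sets. Without middle replicate 1 they were -0.15 and 0.21, and without middle replicate 2 they were -1.55 and 1.62. In fertile J03 buds the mean was 1647 in small and 684 in middle buds, with all 4 middle arrays below all 4 small ones. That step was -1.27 (SE 0.40, adjusted p = 0.092, with 3.02% of probe sets called). It was called with all 48 arrays (adjusted p = 0.026), the compared groups only (adjusted p = 0.038), the larger offset (adjusted p = 0.037) and hybridisations joined across numbers (adjusted p = 0.0060). The first and the last of these settings give little weight to the spread between replicates, as described for small buds. The step was -1.89 without middle replicate 2 and -0.65 without middle replicate 1.

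In sterile J10 buds the mean was 42.2, 221 and 629 from small to large, the first of these not shown to exceed background, and the arrays of neighbouring sizes did not overlap. The steps were 0.93 and 1.33 (SE 0.40 for each), with adjusted p = 0.441 and 0.407, where 0.549% and 0.0713% of probe sets were called. With an offset of 16 the first was 1.66 and with one at the 50th percentile 0.47, and it was 0.60 without middle replicate 2. The second was 0.83 with the offset at the 50th percentile. In sterile J03 buds the step from small to middle was 0.71 (SE 0.40, adjusted p = 0.505, with 2% of probe sets called), from 587 to 964, and it was 0.38 without small replicate 1.

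The sterile-fertile difference itself was compared between sizes and lines. From small to middle buds it moved by 1.77 in J10 and 1.98 in J03 (SE 0.56 for both, adjusted p = 0.545 and 0.627), and from middle to large J10 buds by 0.42 (SE 0.56, adjusted p = 0.936). These 3 comparisons called 0.0642%, 0.00713% and 0.25% of probe sets. None of these passed. The first 2 were 2.99 and 2.24 with an offset of 16, and 0.94 and 1.54 with one at the 50th percentile. Without 1 replicate the small-to-middle value ran from 1.07 to 2.47 in J10 and from 1.36 to 2.60 in J03, and the J10 middle-to-large value from -0.28 to 1.12. The difference between the lines in this effect was -0.22 in small buds (SE 0.56, 95% interval -1.37 to 0.94, adjusted p = 0.991) and -0.42 in middle buds (SE 0.56, 95% interval -1.58 to 0.74, adjusted p = 0.934), where limma called 0% and 0.0285% of probe sets.

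The genes whose signal followed MT1C most closely were then listed by Pearson's r over the 24 replicate columns on the log2 scale, among 7843 other probe sets with 1 gene. The points share arrays, and the line difference and the high sterile large J03 buds enter every r, so the values are a description. ALDH7B4, an aldehyde dehydrogenase known in Arabidopsis for its induction by salt and water stress, came first (r = 0.88). It was followed by AT3G26100 (0.82), AT2G46600 (0.81), AT5G25560 (0.80) and AT5G55620 (0.79), with the next probe set at 0.77. The median r was 0.0015 and the 95th percentile 0.47. Over the 12 group means the same 5 genes had r of 0.85 to 0.90.

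ALDH7B4 kept its likeness within each line (r = 0.77 over the 12 columns of J10 and 0.91 over those of J03). Its signal was 9197 ± 2321 in sterile and 3982 ± 44.4 in fertile large J03 buds, and 3407 ± 312 in sterile and 6021 ± 17.3 in fertile small J03 buds. Its order in those 4 groups was therefore that of MT1C, at smaller ratios. In small J10 buds it had 2457 ± 139 in sterile and 3618 ± 546 in fertile plants. In middle and large J10 buds its sterile means (2661 ± 38.8 and 3391 ± 277) lay below its fertile means (3167.5 ± 374 and 3733 ± 324), unlike those of MT1C. AT3G26100, AT5G25560 and AT5G55620 also followed MT1C within J10 (r = 0.77, 0.76 and 0.75) and within J03 (r = 0.77, 0.54 and 0.66). AT2G46600 followed MT1C within J03 (r = 0.79) but little within J10 (r = 0.18). AT5G25560 had 2986 ± 448 in sterile and 5200 ± 606 in fertile small J03 buds. Genes listed for likeness were chosen on these values, so no test of their differences is given.

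**Figure D4:**
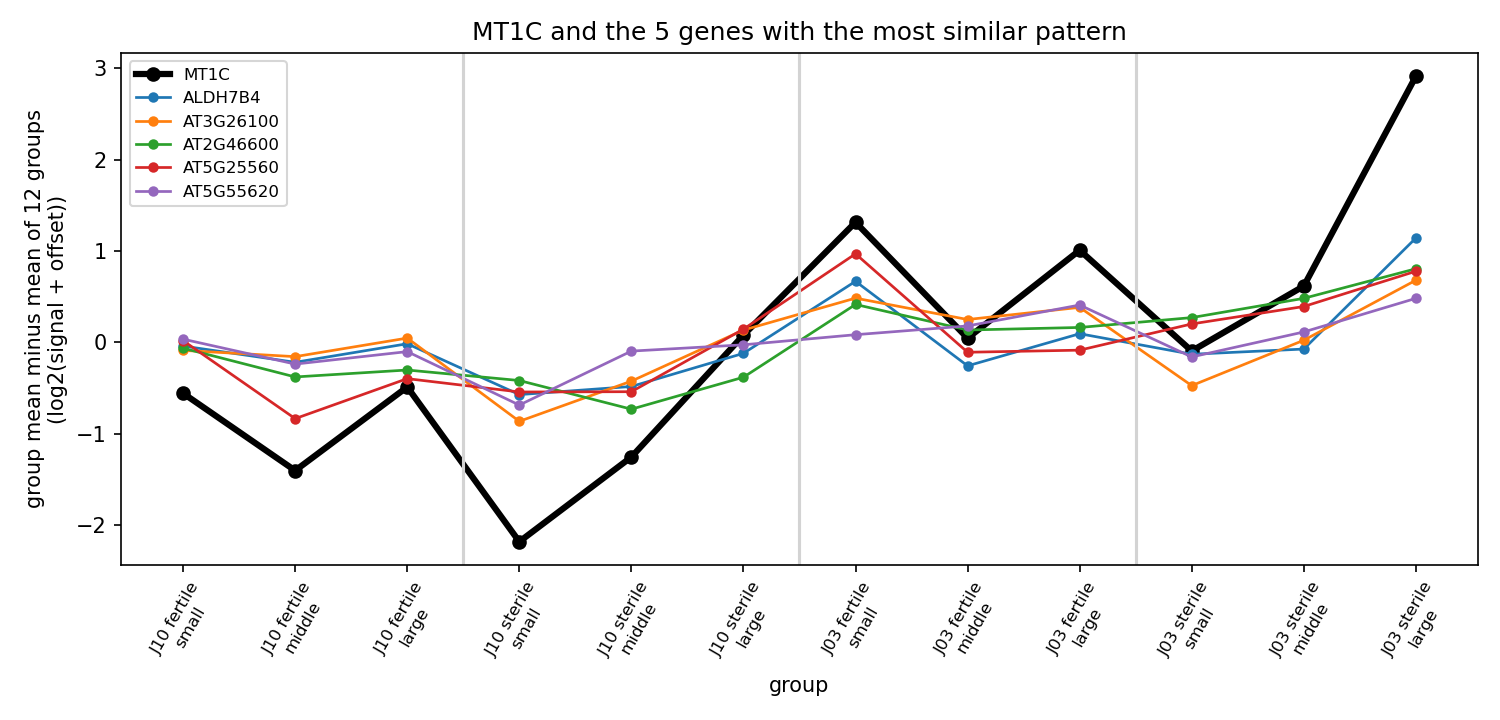
Group means of MT1C (thick black line) and of the 5 genes most like it, each minus its own mean over the 12 groups on the log2(signal + offset) scale, ordered by line, fertility and bud size. MT1C spans the widest range, and ALDH7B4 shares its high points in fertile small and sterile large J03 buds.

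Other genes of metal handling were looked up from lists of copper, zinc and cadmium, and iron handling, peroxide removal and senescence. MT1C was the only 1 of 8 listed metallothioneins that the annotation named. Of the other 100 genes in these 6 lists, 11 were named from a probe set with 1 gene and 8 passed the filter on low signal. None of these 8 was called by limma in any of the 27 comparisons (0 of 216 tests, 19 with an unadjusted p under 0.05, smallest adjusted p = 0.069). Over all probe sets and comparisons 0.815% of tests were called and 9.07% had an unadjusted p under 0.05, against 8.8% for the 8 genes, so their count lies near the background. The copper proteins CCS, the copper chaperone of superoxide dismutase, and ARPN, a blue copper protein, had differences of 0.22 and 0.10 (SE 0.30 and 0.28) in the comparison that chose MT1C.

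ZIP9, of a zinc transporter family, had 0.22 (SE 0.35) between sterile and fertile large J03 buds. ILR3 and PYE, transcription factors of iron homeostasis, had -0.42 and 0.51 (SE 0.21 and 0.22). GR1, a glutathione reductase, had 0.18 (SE 0.22), and the senescence-associated genes SAG29 and SAG101 had -0.04 and -0.76 (SE 0.38 and 0.41). List medians were 0.16 for copper handling, 0.045 for iron handling and -0.40 for senescence, against 0.0003 over all tested probe sets. With 1 or 2 tested members each, these lists cover little of their pathways. Between sterile small buds of J10 and J03, where MT1C differed by -2.09, the 8 genes lay between -0.60 and 0.31, and no adjusted p was under 0.210.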

How the data were processed

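RNA of 48 bud samples was measured on Affymetrix ATH1 arrays. The authors deposited linear signal intensities. The submitters' processing notes name MAS5; its version is not given here. From these, log2(signal + 112) values were computed; the offset is the median over arrays of the 25th percentile without the 64 control probe sets. The 2 hybridisations of a replicate were averaged (24 columns). A probe set was tested where some group had both replicates at or above the 50th percentile of the arrays, which kept 14021 of 22810, 7844 with 1 gene. limma 3.58.1 (R 4.3.3) was fitted to all 12 groups (12 residual degrees of freedom, intensity trend), with Benjamini-Hochberg adjustment over all probe sets within each of 27 comparisons; MT1C was tested in 20, and 7 were described only. The p-values were not adjusted further over the 20. Intervals are 95%. The fit was tested on simulated data. The number of arrays limits the precision.

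A tech_rep array was read as the second hybridisation of the biol_rep with its number, which the titles do not state. The platform annotation named 13513 probe sets with 1 gene and 503 with several, with 8730 unnamed here. The gene, the lists and the rules were chosen with earlier results of these data known. Named genes were MT1C, the 5 with the highest r, and up to 3 tested members per list by size of difference in large J03 buds. Alternatives covered the offset, filter, scaling, hybridisations, block, groups fitted, covariate and left-out replicates, and 4 were added after the data were seen. Figures used matplotlib 3.10.9 (Python 3.11.15).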

Additional observations from a re-analysis of the deposited data

Results flagged for a closer look

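In fertile small J03 buds 1 of 4 arrays stood apart. The first hybridisation of replicate 1 gave 2049, against 1459 to 1557 on the others, and its gap made up 0.835 of the range, above Dixon's 95% critical value for 4 values. Of 12 groups examined this was the only one to exceed that value, and chance gives about 1 in 20. All 4 of these arrays lay above the other class at that size.

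The estimated sterile-fertile difference had opposite directions in small and large buds of both lines, but none of the tested values behind this was called. The adjusted p from limma was 0.145 in small J10, 0.579 in large J10 and 0.328 in small J03 buds. Arrays of sterile and fertile large J10 buds overlapped. In J10 both sterile replicates lay below both fertile ones in small buds and above them in large buds, a shift of 2.19 from -1.63 to 0.57. How many probe sets have replicates in such an order was not computed. Sterile small J10 signals lay under the offset, so the size of this shift depends on it. The small J10 difference was -2.70 with an offset of 16 and -0.86 with one at the 50th percentile. In J03 the shift was 3.31, from -1.41 to 1.90. The change from small to large was not tested, and the J03 value involves the buds for which the gene was picked.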

How the results depend on the processing

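The 20 tested comparisons were refitted under 14 settings and with each replicate left out, which gave 374 values. No called difference turned its direction. Over these values 20 calls were lost and 16 gained, some of both with a replicate left out. Fertile J03, middle minus small, is among those gained in that way. Fertile small buds, J10 minus J03, lost the call with an offset of 16 (-2.13), first hybridisations (-2.26), second hybridisations (-1.48), the other controls' 3' to 5' ratio (-1.81) and without the array least like its group (-1.87, adjusted p = 0.050004). Sterile small buds, J10 minus J03, lost it with first hybridisations (-1.70) and the other controls (-2.29), and sterile middle buds with first hybridisations (-1.69), the other controls (-2.16) and without that array (-1.48). Without 1 replicate these 3 ran from -1.96 to -1.79, -2.42 to -1.76 and -2.20 to -1.54. Calls were gained for fertile middle buds, J10 minus J03, with all 48 arrays and joined hybridisations (-1.45 in both; -2.15 to -0.75 without 1 replicate) and for fertile J03, middle minus small, with the 50th percentile offset (-1.01), all 48 arrays, the compared groups and joined hybridisations (-1.27 in each; -1.89 to -0.65 without 1 replicate). Small J10 buds, sterile minus fertile, gained it with all 48 arrays and joined hybridisations (-1.63), and small J03 buds with the compared groups and joined hybridisations (-1.41). Joined hybridisations also gained sterile J10, large minus middle (1.33), and the small-to-middle shift of the sterile-fertile difference in J10 (1.77) and J03 (1.98). Calls gained with joined hybridisations or all 48 arrays are not counted as support. Those settings give little weight to the spread between replicates if the hybridisations pair as read here. With the compared groups only, MT1C did not pass the filter in 6 comparisons within or between dim groups, which have no value there. A replicate left out leaves 1 sample in its group, assumed to vary like the others.

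Replicate numbers are shared between groups, but no label says that they pair samples. Same-numbered replicates deviated together within J10 (r of 0.094 to 0.292 across probe sets) and not within J03 (-0.045 to 0.080) or between lines (-0.035 to 0.064). With the replicate block within each line, sterile small buds, J10 minus J03, had -2.09 (adjusted p = 0.0033), and the block changed none of the 20 calls for MT1C. Over all probe sets it moved the calls between lines from 175 to 333 in sterile small, 335 to 556 in sterile middle and 55 to 188 in fertile small buds. Signals of a replicate's 2 hybridisations correlated more than those of different replicates in 8 of 12 groups, 6 of them J10, and the random effect of the replicate had a correlation of 0.043. Detection calls, and so signal over background, were not used here.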
